A study of Homo sapiens with 6 samples.

Results

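Neuropilins, plexins and class 3 semaphorins form a ligand and receptor system, described here through 10 genes: the neuropilins NRP1 and NRP2, the plexins PLXNA1, PLXNA2, PLXNA3, PLXNB1, PLXNB2 and PLXND1, and the secreted semaphorins SEMA3A and SEMA3C. They were taken by symbol from a table of 60675 genes, and all 10 passed the filter on low counts that left 16503 genes for testing. The set was chosen by the fold change of NRP1 between SP2509 and untreated cells, where it stood at rank 20 of the 16503 genes among the increases. The comparison of SP2509 with untreated cells therefore describes the 10 genes and does not test them.

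Class 3 semaphorins are secreted guidance proteins first known for steering axons. Most of them bind a neuropilin, which has only a short cytoplasmic tail, and the signal passes through a plexin in the same complex. Plexins carry an intracellular domain that acts on small GTPases and lowers integrin adhesion. Neuropilins also bind VEGF family ligands, and B-class and some other plexins bind membrane-bound semaphorins without a neuropilin. In carcinoma cells the system is known for effects on migration, adhesion and survival.

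The cells were HCT116, a line established from a human colon carcinoma, sequenced as 6 libraries in 3 groups of 2. Untreated cells carried the wild-type label, and the sources used here do not say whether they received the DMSO solvent. SP2509 cells, also labelled wild type, received that compound, which is known to block LSD1, a histone demethylase, at 3 uM for 48 h. In siPIR cells, PIR, the gene of the iron-binding nuclear protein Pirin, was silenced transiently for 48 h with small interfering RNA. Their titles name the knockdown alone but their treatment label names SP2509, so these cells may have had both, and no library is labelled as having a non-targeting siRNA. Nothing says that the libraries of a group came from separate cultures, so p-values reflect only the scatter among these samples, and that scatter may be technical.

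The libraries held 22622441 to 28816590 counts. Untreated libraries held 519 and 462 counts of PIR itself, SP2509 libraries 377 and 305 and siPIR libraries 37 and 39. CPM here is a count relative to library size, with TMM scaling (trimmed mean of M values) between libraries. For untreated, SP2509 and siPIR libraries in this order, the 12 colorectal epithelial markers summed to 3890 to 3960, 4990 to 5110 and 1380 to 1410 CPM. KRT8 was at 1860 and 1850 CPM in untreated and 232 and 274 in siPIR libraries, and EPCAM at 203 and 221 against 758 and 667. CDX1 was at 0 in all 6 libraries, and CDH17 and VIL1 reached at most 0.155 and 0.443 CPM. In the same order the 8 endothelial markers summed to 1.33 to 1.71, 2.0 to 2.41 and 0.156 to 0.313 CPM, with CLDN5 at 0 throughout, CDH5 at 0 once counts were rounded, and ROBO4 at 1.37 and 1.98 CPM in the SP2509 libraries. The sums of 8 fibroblast markers were 22.8 to 25.7, 20.8 to 22.1 and 1.83 to 2.13 CPM in the same order, with COL1A2 at 0 and COL1A1 making up 1.15 and 1.56 CPM in the siPIR libraries and nearly all of the sum in the others. Leukocyte markers summed to at most 1.4 CPM, with PTPRC, CD3E and MS4A1 at 0. The 7 neuronal markers summed to 21.7 to 24.5, 36.4 to 36.6 and 14.7 to 14.8 CPM, mostly MAP2, and none was at 0 in every library. The part of these other markers in the results was not tested. Counts from bulk RNA cannot separate fewer cells of a type from less RNA per cell. Marker levels in siPIR libraries also carry the GC trend of those libraries, described below, and cannot be told apart from it.

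In untreated HCT116 cells, plexin RNA far exceeded neuropilin RNA. Compared per length of the longest transcript, PLXNB2, a receptor of class 4 semaphorins, was the most abundant of the 10 genes at 47.4 ± 2.4 CPM per kb (SD, n = 2). It made up 62.3% and 62.6% of the summed level of the 6 plexins in the 2 libraries. PLXND1, a receptor known from blood vessel patterning, followed at 10.1 ± 0.96 CPM per kb, and PLXNA1, a partner of neuropilins, at 8.77 ± 0.43. The ligand gene SEMA3C came next with 7.21 ± 0.17 CPM per kb. PLXNB1, a receptor of SEMA4D, and PLXNA3, a further partner of neuropilins, had 4.75 ± 0.13 and 4.63 ± 0.42 CPM per kb, and their libraries overlapped. SEMA3A, the ligand classically known for growth cone collapse, had 2.39 ± 0.0024 CPM per kb. NRP1, PLXNA2 and NRP2 lay lowest, at 0.309 ± 0.042, 0.293 ± 0.02 and 0.281 ± 0.0016 CPM per kb, and these 3 could not be ordered beyond the spread between libraries. NRP1 stood at 0.0373 and 0.033 of the level of PLXNA1 per length.

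With SP2509, NRP1 moved from the bottom of this order to near its top. NRP1 (ENSG00000099250, GRCh38 chromosome 10, 33177492 to 33336262, minus strand) was counted 72 and 52 times in the untreated libraries, 1388 and 1813 times with SP2509 and 269 and 229 times with siPIR. These amount to 1.99 and 1.64, 54.5 and 70.3, and 14.1 and 11.9 CPM. The 3 groups did not overlap, with SP2509 highest and siPIR between. The mean was 1.82 ± 0.245 CPM in untreated and 62.4 ± 11.2 CPM in SP2509 cells (SD, n = 2), a 34.3-fold difference and a log2 fold change of 5.09, which is the value that chose the gene. By counting error alone, the SP2509 level was 3410% of the untreated one, with an exact 95% interval of 2850% to 4120%. Per length NRP1 reached 10.6 ± 1.9 CPM per kb in SP2509 cells, where only PLXNB2 lay clearly above it and PLXND1, at 11.8 ± 0.28, overlapped with it.

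NRP2, the paralogue that binds an overlapping set of ligands, did not share this pattern. NRP2 (ENSG00000118257, chromosome 2, 205681990 to 205798133, plus strand) was counted 68 and 59 times without treatment, 44 and 45 times with SP2509 and 17 and 31 times with siPIR. The corresponding levels were 1.88 and 1.87, 1.73 and 1.75, and 0.888 and 1.61 CPM, with a log2 difference of -0.11 between SP2509 and untreated cells. The ratio of NRP1 to NRP2 per length was therefore 1.2 and 0.998 in untreated libraries, against 35.7 and 45.6 with SP2509 and 17.9 and 8.37 with siPIR. An antisense gene overlaps 1 exon of each neuropilin. That of NRP1 reached no more than 2 counts per library, and that of NRP2 stayed at 0 in all 6.

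**Figure D1:**
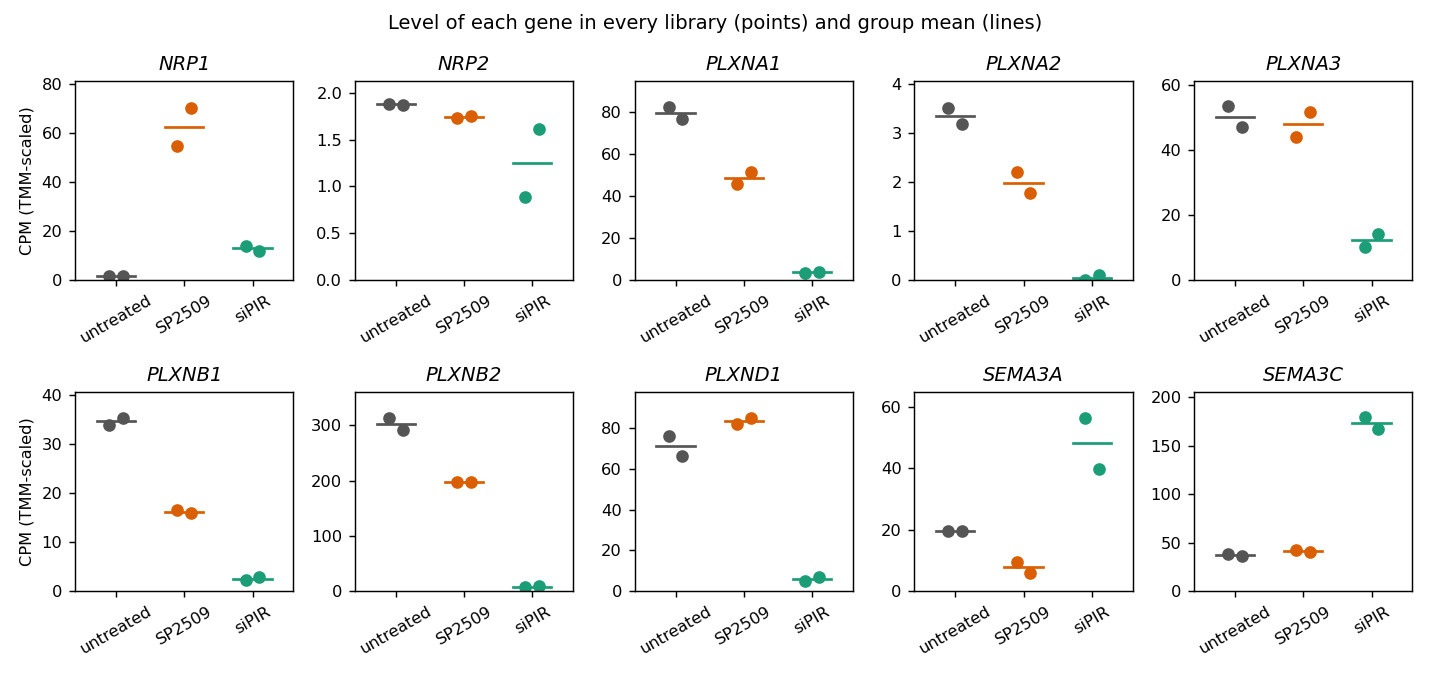
TMM-scaled CPM of the 10 genes in each of the 6 libraries, with 1 panel and 1 linear axis from 0 per gene; points are libraries and lines are group means. NRP1 lies at 54.5 and 70.3 CPM in SP2509 libraries against 1.99 and 1.64 in untreated ones, while SEMA3A has its lowest values in SP2509 and its highest in siPIR libraries.

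The 2 ligands differed from each other after SP2509. SEMA3A (ENSG00000075213, chromosome 7, 83955777 to 84492724, minus strand) was counted 711 and 621 times in the untreated libraries, 240 and 155.5 times with SP2509 and 1082 and 767 times with siPIR. That is 19.7 and 19.6, 9.43 and 6.05, and 56.5 and 39.9 CPM, and no group overlapped another. Its level in SP2509 cells was 39.3% of the untreated one (exact 95% counting interval 35.1% to 44.0%), a log2 difference of -1.34. SEMA3C (ENSG00000075223, chromosome 7, 80742538 to 80922359, minus strand), a ligand known from heart and vessel development, was counted 1370 and 1160 times without treatment, 1092 and 1038 times with SP2509 and 3449.5 and 3210 times with siPIR. In CPM it stood at 37.9 and 36.7, 42.9 and 40.3, and 180.0 and 167.0. Its log2 difference of 0.16 between SP2509 and untreated cells turned to -0.08 under upper-quartile scaling and -0.23 under total counts alone, so no direction can be given for it. SEMA3A stood at 0.326 and 0.337 of the level of SEMA3C per length in untreated libraries and at 0.138 and 0.0945 in SP2509 libraries.

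Among the plexins, PLXNB1, PLXNA2, PLXNA1 and PLXNB2 were lower in SP2509 than in untreated libraries under all 4 scalings tried. PLXND1 and PLXNA3 differed less with TMM. PLXNB1 (ENSG00000164050, chromosome 3, 48403854 to 48430051, minus strand) had 34.0 and 35.4 CPM in untreated and 16.5 and 16.0 in SP2509 libraries, a log2 difference of -1.09. PLXNA2 (ENSG00000076356, chromosome 1, 208022242 to 208244320, minus strand), an A-class partner of neuropilins, had 3.51 and 3.19 against 2.2 and 1.78 CPM, a log2 difference of -0.75. These values rest on 127 and 101 against 56 and 46 counts, the fewest of any plexin here. PLXNA1 (ENSG00000114554, chromosome 3, 126988594 to 127037392, plus strand) had 82.3 and 76.8 against 45.9 and 51.6 CPM, a log2 difference of -0.71. PLXNB2 (ENSG00000196576, chromosome 22, 50274979 to 50307627, minus strand), from 11328.33 and 9225.3 counts to 5038 and 5085, had 313.0 and 292.0 against 198.0 and 197.0 CPM, a log2 difference of -0.61.

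PLXND1 (ENSG00000004399, chromosome 3, 129555175 to 129606818, minus strand) had 76.1 and 66.5 CPM in untreated and 82.1 and 84.9 in SP2509 libraries. Its log2 difference of 0.23 turned to -0.01 under upper-quartile scaling and -0.16 under total counts alone. PLXNA3 (ENSG00000130827, chromosome X, 154458281 to 154477779, plus strand) had 53.6 and 47.2 against 44.2 and 51.8 CPM and was the only 1 of the 10 genes whose untreated and SP2509 libraries overlapped. Its log2 difference was -0.07 with TMM and -0.46 with total counts alone. For comparison, 86.9% of all genes tested did not overlap between these groups, so the 9 that did not are no more than the background. The share of plexin RNA per length held by PLXND1 was 13.6% and 12.8% in untreated and 21.4% and 21.5% in SP2509 libraries, and that of PLXNB2 was 57.2% and 55.5% in the latter. The 6 plexins together summed to 78.8 and 73.0 CPM per kb in untreated and 54.2 and 55.7 in SP2509 libraries.

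The median log2 difference of the 10 genes between SP2509 and untreated cells was -0.36, against -0.04 over all genes tested. In that comparison 68.6% of all genes passed the test (edgeR's quasi-likelihood test, adjusted p below 0.05), and 73.1% with the GC-length offset described with the siPIR cells. The median of all genes moved from -0.04 with TMM to -0.27 under upper-quartile scaling and -0.43 under total counts alone, so differences of that size depend on the scaling. Under these scalings 48.8%, 36.2% and 28.3% of the calls were higher. The log2 difference of NRP1 was 4.70 with total counts.

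Genes whose pattern over the 6 libraries was among the nearest to that of NRP1 were ETS1, CD274, GEM and CD55, by Euclidean distance of log2 CPM centred on each gene's mean, among 10093 genes with a mean log2 CPM of at least 3. ETS1, which encodes a transcription factor, was nearest, at a distance of 0.738, and had 13.5 and 13.3 CPM without treatment, 409.0 and 370.0 with SP2509 and 61.3 and 63.1 with siPIR. CD274 (PD-L1, an immune checkpoint ligand, distance 1.25) had mean levels of 1.82 CPM without treatment, 47.1 with SP2509 and 5.63 with siPIR. GEM, a small GTPase of the RGK family, and CD55, a complement regulator, lay at distances of 1.28 and 1.34. These 4 were highest in SP2509 and lowest in untreated libraries, and since they were chosen by likeness over these libraries this is a description only.

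Pathway genes outside the 10 were taken from 6 lists, of which 74 of 88 entries were tested. Between SP2509 and untreated cells 25 rose and 30 fell, against 33.5% higher and 35.1% lower over all genes tested, and their median log2 fold change was 0.02. With total counts alone the split was 18 higher and 42 lower, so that 30% rather than 45.5% of the calls were higher. Of 15 other semaphorin genes tested, 5 rose and 9 fell (median -0.76). SEMA7A, a membrane-anchored ligand of PLXNC1 and integrins, rose 6.19-fold (log2 2.63, SE 0.131, edgeR adjusted p = 6.77e-09). SEMA6A, a transmembrane ligand of A-class plexins, rose by 2.35 on the log2 scale. SEMA3G and SEMA4G fell by 1.96 and 1.61 on the same scale (edgeR adjusted p = 8.1e-06 and 8.31e-07). Of the other plexins, PLXNB3 rose by 0.67 and PLXNC1 fell by 1.93 (edgeR adjusted p = 0.015 and 0.0456), both at mean levels of 2.79 CPM or less in every group. They were named after their values were seen. The call of PLXNB3 was lost under both upper-quartile and total-count scaling (edgeR adjusted p = 0.0905 and 0.269). That of PLXNC1 held with both, but it rests on 7 and 14 counts in untreated and 2 and 2 in SP2509 libraries. The latter lie below the floor of 3 counts. PLXNA4 had too few counts to be tested.

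Of 11 co-receptors and partners tested, 3 rose and 6 fell with SP2509 (median -0.44). SDC4, the heparan sulphate proteoglycan syndecan 4, rose 5.89-fold (log2 2.56, SE 0.103, edgeR adjusted p = 1.24e-09), and ITGB1, the integrin beta 1 subunit, rose 2.57-fold. PTK7, a pseudokinase of planar cell polarity, fell by 1.74 on the log2 scale, and ERBB2, a receptor kinase that associates with B-class plexins, fell by 1.27 (edgeR adjusted p = 2.29e-07 and 7.63e-07). Of 4 VEGF family ligands, VEGFA rose 3.42-fold (log2 1.77, SE 0.104, edgeR adjusted p = 2.52e-08) and PGF 2.3-fold, and the other 2, VEGFB and VEGFD, did not pass the test with TMM but were called lower under both upper-quartile and total-count scaling. The VEGF receptor genes KDR and FLT4 had means of at most 0.339 CPM in any group and were not tested, and FLT1 had a count of 0.11 in 1 untreated library and 0 in the other 5. The floor of 3 counts is 0.083 to 0.157 CPM per library.

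Of 35 signalling and cytoskeletal effectors tested, 13 rose and 12 fell (median 0.05), or 9 and 19 with total counts alone. MICAL2, an actin-oxidising monooxygenase, rose 6.35-fold (log2 2.67, SE 0.108, edgeR adjusted p = 1.39e-09). RHOD, a small GTPase, rose 4.83-fold. RND2, a small GTPase, fell by 2.56 on the log2 scale, and CDK5, a kinase that acts on collapsin response mediator proteins, fell by 1.77 (edgeR adjusted p = 8.36e-07 and 1.67e-07). No direction of the 14 genes named here by the rule from the semaphorin, co-receptor, VEGF and effector lists flipped under the other 3 scalings.

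**Figure D2:**
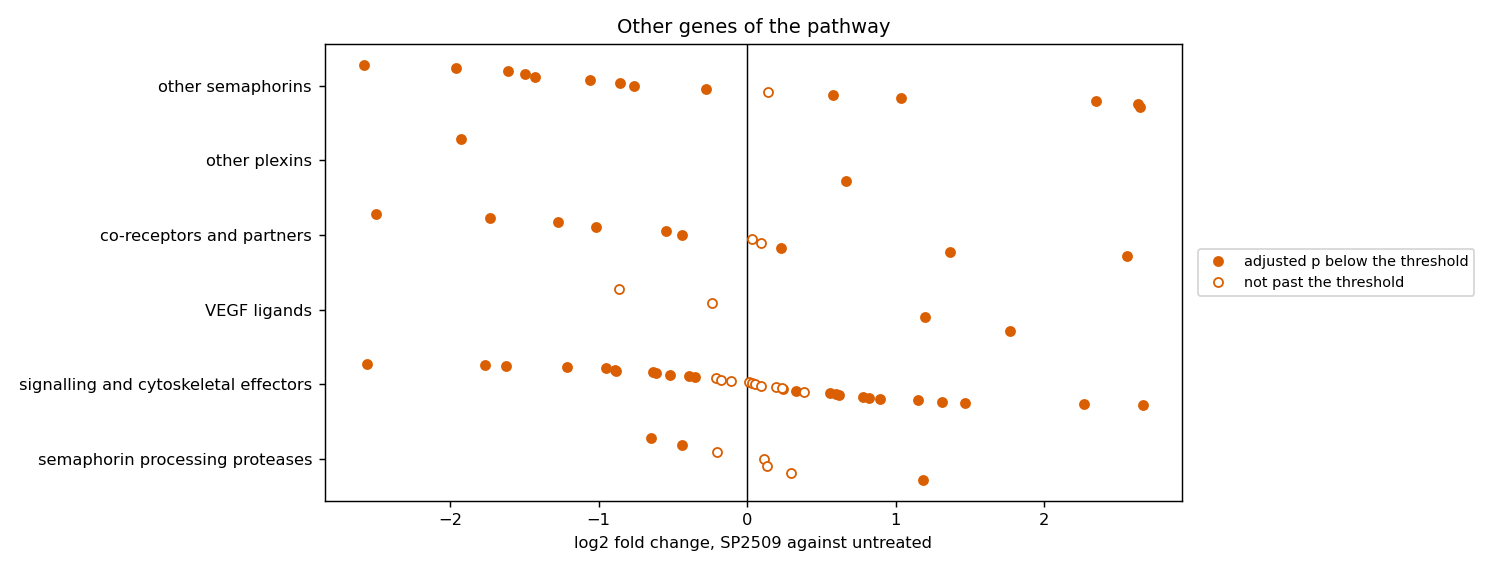
Log2 fold change between SP2509 and untreated cells for the 74 tested pathway genes outside the 10, 1 point per gene and 1 row per list; filled points passed the edgeR test at an adjusted p of 0.05. SEMA7A, SDC4 and MICAL2 are at 2.63, 2.56 and 2.67, and the semaphorin list has 9 filled points to the left of 0 and 5 to the right.

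In siPIR cells, as fitted, the 6 plexin genes were lower and NRP1, SEMA3A and SEMA3C higher than in untreated cells. The higher genes have transcripts of lower GC content than the plexins. Of the higher genes, SEMA3A, with the lowest GC content, rose least (1.29). Of the plexins, PLXNA2, with the lowest GC content, fell most (-5.88), from 0 and 2 counts in siPIR libraries. How fold changes follow GC content among so few genes was not tested. With an offset for base composition and length, SEMA3A, PLXNA3 and PLXND1 turned and PLXNB1 no longer passed the test. The counts in the siPIR libraries had a count-weighted mean transcript GC content of 42.3% and 42.8%, against 48.3% to 48.7% in the other 4. Over all genes tested, the median log2 fold change between siPIR and untreated cells was 1.86 at 35 to 40% GC, 1.08 at 40 to 45%, -1.18 at 50 to 55%, -2.61 at 55 to 60% and -4.11 at 60 to 65%. The 10 genes span much of this range, from 36.7% in SEMA3A and 39.4% in SEMA3C through 44.7% in NRP1, 50.4% in NRP2, 54.2% in PLXNA2 and 57.4% in PLXNA3 to between 61.6% and 63.5% in PLXNA1, PLXNB1, PLXNB2 and PLXND1. The middle 120 coding bases of 4 of them are shown as examples, 5′ to 3′, from the longest GENCODE 29 transcript on GRCh38, with every G and C in capitals:
SEMA3A: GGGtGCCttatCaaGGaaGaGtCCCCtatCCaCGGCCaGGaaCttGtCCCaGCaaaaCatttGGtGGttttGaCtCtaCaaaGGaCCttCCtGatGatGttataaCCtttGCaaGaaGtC
NRP1: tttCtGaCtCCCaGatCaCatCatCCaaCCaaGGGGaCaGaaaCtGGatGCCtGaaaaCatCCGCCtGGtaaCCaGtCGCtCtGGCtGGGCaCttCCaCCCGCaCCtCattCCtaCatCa
PLXNA2: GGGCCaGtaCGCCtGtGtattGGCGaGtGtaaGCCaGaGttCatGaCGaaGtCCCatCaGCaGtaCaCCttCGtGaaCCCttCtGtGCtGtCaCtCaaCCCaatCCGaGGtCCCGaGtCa
PLXNB2: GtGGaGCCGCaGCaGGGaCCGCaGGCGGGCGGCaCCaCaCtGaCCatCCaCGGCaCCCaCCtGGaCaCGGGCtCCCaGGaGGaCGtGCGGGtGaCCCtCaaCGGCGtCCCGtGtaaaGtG
These stretches hold 56, 64, 66 and 84 G or C bases. They do not stand for the whole transcripts. The stretches of NRP1 and PLXNA2, at 53.3% and 55% GC, are closer to each other than their transcripts, at 44.7% and 54.2%. The stretches are coding bases 1097 to 1216 of 2313 in SEMA3A, 1325 to 1444 of 2769 in NRP1, 2782 to 2901 of 5682 in PLXNA2 and 2698 to 2817 of 5514 in PLXNB2, all exonic and on minus strand genes. All siPIR libraries and no others have the low GC content, so base composition and the knockdown cannot be told apart by group. Fold changes below are therefore given as fitted and with an offset fitted to each library's trend on GC content and length. Levels are given without it. The offset did not remove the trend in full. With it, the median log2 fold change between siPIR and untreated cells was 0.159 below 35% GC, -0.515 at 60 to 65% and -1.26 from 65%.

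By edgeR's quasi-likelihood test, 9 of the 10 genes changed between siPIR and untreated cells, 3 higher and 6 lower, against 86.1% of all genes tested (39.3% higher and 46.9% lower). The libraries of the 2 groups did not overlap for any of the 10, as for 93.1% of all genes. The median was -2.80, against -0.28 over all genes. With the offset, 8 passed, 4 higher and 4 lower, against 65% of all genes (32.8% higher and 32.2% lower), and the median was -0.12, against -0.04. The share of the 10 genes past the threshold is thus near the background in both fits. This comparison shares the untreated libraries with that of SP2509.

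NRP1 rose in siPIR cells in both fits, from 1.82 ± 0.245 to 13.0 ± 1.51 CPM (SD, n = 2), which is 7.14-fold (log2 2.83, SE 0.193, edgeR adjusted p = 1.05e-08). With the offset the rise was 2.24 (SE 0.189, edgeR adjusted p = 6.97e-09). Of the 3450 genes with 40 to 45% GC, 97.9% had a lower fold change. NRP1 was chosen by its rise over the same untreated libraries, so its p-values and this percentage are not independent of that choice. The siPIR cells may also have had SP2509, as their treatment label says. SEMA3C also rose in both fits, by 2.22 as fitted (SE 0.1, edgeR adjusted p = 2.16e-10) and by 0.66 with the offset (SE 0.0742, edgeR adjusted p = 6.26e-08). SEMA3A had a log2 fold change of 1.29 as fitted (SE 0.174, edgeR adjusted p = 1.13e-05) but of -0.70 with the offset (edgeR adjusted p = 4.73e-05). Its fitted value was below the median of 1.86 for its GC range, so no direction can be given for it. NRP2, at 1.87 ± 0.0107 and 1.25 ± 0.513 CPM, did not pass either test (log2 -0.58 and -0.05, edgeR adjusted p = 0.0663 and 0.875). It passed with total counts alone (-1.19, edgeR adjusted p = 0.000949) and without siPIR replicate 2 (-1.05, edgeR adjusted p = 0.0101).

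PLXNA2, PLXNB2 and PLXNA1 fell in siPIR cells in both fits. PLXNA2 had 0 and 2 counts in siPIR libraries, or 1.55% of its level in untreated cells (exact 95% interval by counting error, 0.187% to 5.66%). Its log2 fold change was -5.88 (SE 0.497, edgeR adjusted p = 9.63e-08), and -4.54 with the offset (SE 0.58, edgeR adjusted p = 4.15e-07). Only 0.888% of the 2590 genes with 50 to 55% GC had a lower value. Fitted values at so few counts depend on the prior count, and without siPIR replicate 2 the value was -9.53. PLXNB2, with 129 and 176 counts and 6.74 and 9.16 CPM in siPIR libraries, fell by 5.25 as fitted (SE 0.144, edgeR adjusted p = 1.22e-11) and by 1.45 with the offset (SE 0.095, edgeR adjusted p = 8.76e-12). PLXNA1, with 72 and 77 counts and 3.76 and 4.01 CPM, fell by 4.35 as fitted (edgeR adjusted p = 1.7e-11) and by 0.93 with the offset (SE 0.128, edgeR adjusted p = 1.13e-06). Of the 1790 genes with 60 to 65% GC, 22.5% had a lower fitted value than PLXNB2 and 42% a lower one than PLXNA1. The median of that range was -4.11 as fitted and still -0.515 with the offset, so the fall of PLXNA1 was close to that of its GC range.

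For the other 3 plexins the offset ended or turned the fall. PLXNB1, at 2.19 and 2.86 CPM in siPIR libraries, had a log2 fold change of -3.77 (edgeR adjusted p = 7.16e-11) that became -0.18 (edgeR adjusted p = 0.331). PLXND1, at 5.07 and 6.87 CPM, went from -3.58 (edgeR adjusted p = 9.19e-11) to 0.30 (edgeR adjusted p = 0.0262). PLXNA3, at 10.4 and 14.3 CPM, went from -2.03 (edgeR adjusted p = 1.94e-08) to 0.28 (edgeR adjusted p = 0.0226). In order of TMM-scaled level per length, without the offset, SEMA3C led the 10 genes in siPIR cells at 33.6 ± 1.8 CPM per kb. SEMA3A followed at 5.86 ± 1.4 and NRP1 at 2.21 ± 0.26. PLXNB2, PLXNA3 and PLXND1 came next at 1.25 ± 0.27, 1.14 ± 0.25 and 0.842 ± 0.18 CPM per kb, each overlapping with the next. The 6 plexins together summed to 3.45 and 4.56 CPM per kb. This order and this sum carry the GC trend of the siPIR libraries and cannot be told apart from it.

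**Figure D3:**
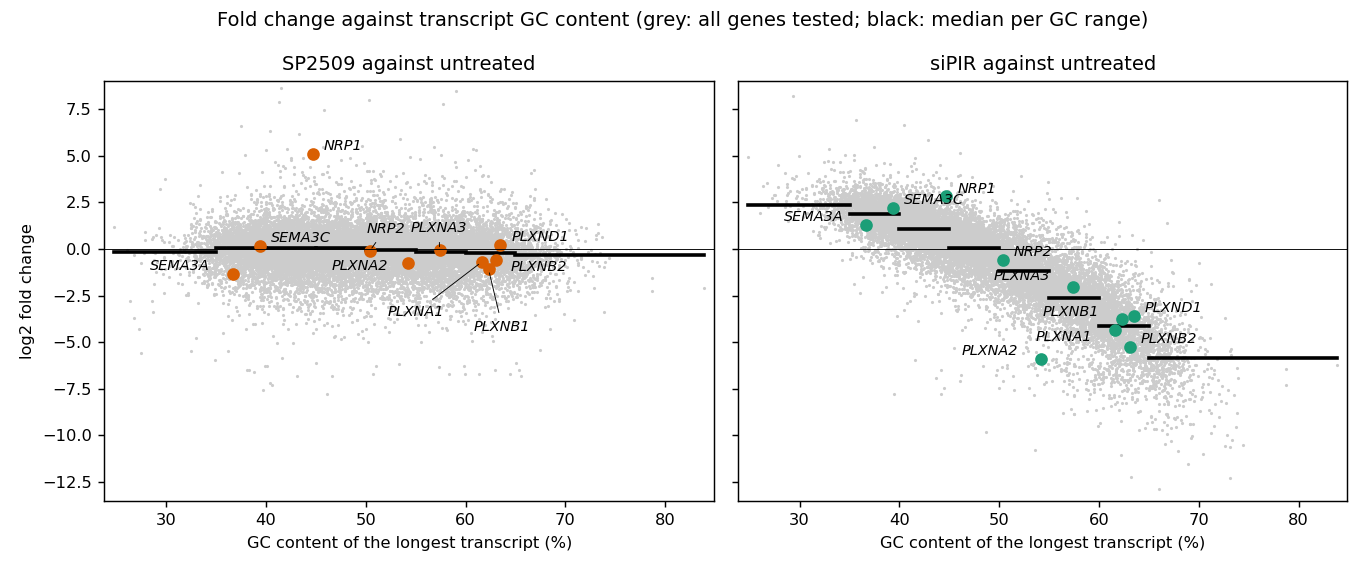
Log2 fold change against the GC content of the longest transcript, for SP2509 (left) and siPIR (right) against untreated cells; grey points are all tested genes with a GC value, black lines their median in each GC range, and coloured points the 10 genes. On the right SEMA3A, SEMA3C and NRP1, below 45% GC, are above 0 and the plexins are below it, and PLXNA2, at -5.88 and 54.2% GC, lies far below the median of -1.18 for its range, while on the left NRP1 is at 5.09 and the other 9 genes are between -1.34 and 0.23.

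**Figure D4:**
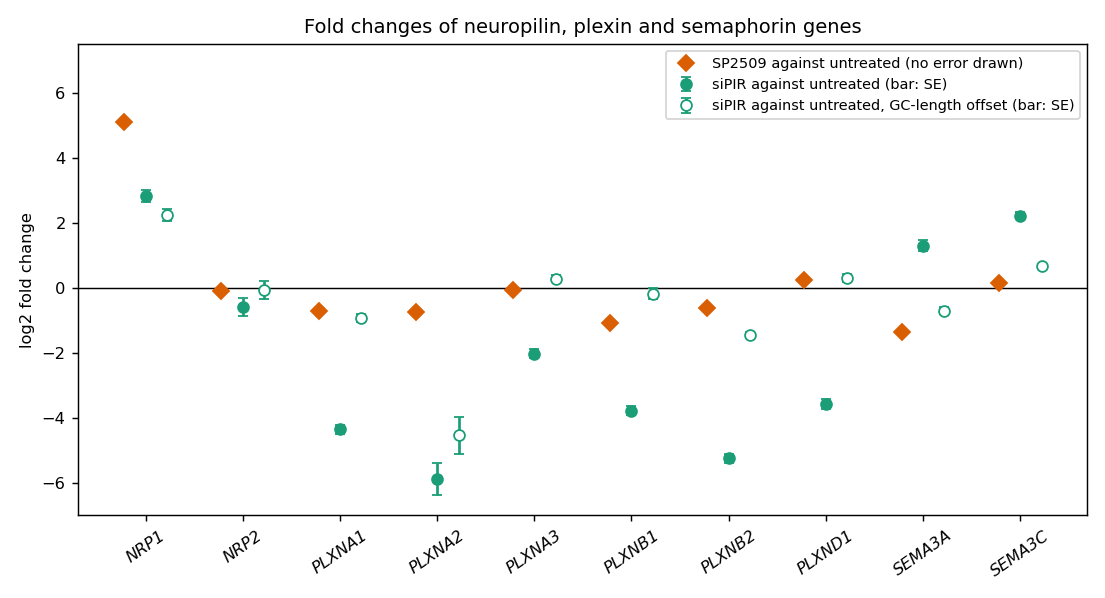
Log2 fold changes of the 10 genes: diamonds for SP2509 against untreated, which chose NRP1 and carries no error bar, filled circles for siPIR against untreated and open circles for the same with the GC-length offset (bars are SE). NRP1 and SEMA3C are above 0 in all 3, and NRP2, PLXNA1, PLXNA2, PLXNB1 and PLXNB2 are below 0 in all 3. The siPIR values of SEMA3A, PLXNA3 and PLXND1 change sign with the offset.

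Of the 74 pathway genes outside the 10, 16 rose and 49 fell in siPIR cells as fitted, against 39.3% higher and 46.9% lower over all genes tested. Their median log2 fold change was -1.74, and the median of their GC contents was 54.8%. With the offset 23 rose and 35 fell (median -0.27), against 32.8% and 32.2% over all genes. Both fits gave the same direction past the threshold for SDC4 (1.77 as fitted and 2.08 with the offset, edgeR adjusted p = 5.03e-16 for the latter), ITGB1 (2.51 and 1.102), VEGFA (1.051 and 2.61), PTK7 (-3.78 and -1.14), ERBB2 (-3.81 and -1.36), RND2 (-3.55 and -2.39), PGF (-4.25 and -2.49), CDK5 (-3.57 and -0.73), SEMA3G (-3.76 and -1.07) and SEMA6A (0.53 and 0.82). RHOD passed only as fitted (-4.01, and 0.29 with the offset, edgeR adjusted p = 0.334), and MICAL2 only with the offset (0.35, and -0.15 as fitted, edgeR adjusted p = 0.233). SEMA7A was at -1.28 as fitted and at 2.0 with the offset, passing the test with opposite signs, and SEMA4G likewise at -2.24 and 0.57. SEMA6A stood at -0.085 with total counts alone.

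Reads that fit several genes may bear on a few of these values, which was not tested. Of the 45 pairs of the 10 genes, PLXNA2 and PLXNA3 share the longest identical run between their longest transcripts, of 59 bases, followed by PLXNA1 and PLXNA3 with 50 bases. In PLXNA3, 1 exon also overlaps the span of LAGE3, a gene on the opposite strand, and the number of shared bases was not measured. LAGE3 was counted 551 and 480.1 times without treatment, 383 and 380.33 times with SP2509 and 0 and 9 times with siPIR. The sources used here do not give the strand setting of the counting, so the levels of these 2 genes may not be fully separable, which was not tested.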

How the data were processed

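Groups came from the sample titles. The authors deposited 1 table of estimated counts per Ensembl gene, in which 11.0% of values were not whole. Per the submitters' processing notes, the tools were HISAT2, Trimmomatic 0.32, FastQC 0.11.8, edgeR 3.26.4 and featureCounts (Subread 1.6.2), with the build GRCh38. The sources used here give neither the annotation nor the rule behind the fractions. Libraries were directional, per the labels' protocols.

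Counts were rounded, filtered by filterByExpr, scaled by TMM and fitted with edgeR 4.0.16 (R 4.3.3) by the robust quasi-likelihood test over all 6 libraries as 3 groups, with 3 residual degrees of freedom before moderation. The Benjamini-Hochberg adjustment covered the 16503 tested genes, at a threshold of 0.05. The SE is the log2 fold change divided by the root of F. GC content and length were taken from each gene's longest GENCODE 29 transcript, and 158 tested genes had none. The GC-length offset removes each library's deviation fitted on both by natural splines of 5 degrees of freedom. It was estimated from the same libraries, so it also removes real differences that follow GC content or length. The script was tested on simulated data.

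All 10 genes are named. From each pathway list the 2 largest rises and 2 largest falls with SP2509 are named, among genes past the threshold with a mean log2 CPM of at least 1, as are the 5 genes nearest to NRP1, of which 1 is not reported here. Of the lists' entries, 2 were matched through their Ensembl identifier. The genes, lists and alternatives were chosen with earlier results of these data known. The alternatives were 3 other scalings, DESeq2 1.42.0, 2 other count filters, a fit of the 4 libraries compared, blocks for the replicate and for a number in the sample descriptions, the offset with and without the replicate block, and leaving out each library. Counting intervals are exact at 95% and, like the floor of 3 counts, cover counting error only.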

Additional observations from a re-analysis of the deposited data

How the results depend on the processing

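The counts of genes called kept within 1.5 times of their reported values under all 17 alternatives: all genes and pathway genes in both comparisons, and the 10 genes in siPIR cells, of which 8 to 10 passed. Directions turned for few of the 10. Against untreated, SP2509 values turned for PLXND1 (-0.0067 with upper-quartile scaling, -0.16 with total counts), SEMA3C (-0.077 and -0.23) and PLXNA3 (0.057 with the GC-length offset, 0.053 with the offset and replicate block, and, with 1 library left out at a time, -0.17 to 0.052, positive without untreated replicate 1 at 0.035 and without SP2509 replicate 1 at 0.052). In siPIR cells, PLXNA3, PLXND1 and SEMA3A turned with the offset (0.28, 0.30 and -0.70) and with the replicate block and offset together (0.28, 0.30 and -0.71, edgeR adjusted p = 0.0241, 0.0307 and 1.76e-07). The cause was not tested. With the replicate block alone 11179 genes were called for SP2509 and 14136 for siPIR, and 9 of the 10 genes in siPIR cells. Libraries with the same replicate number did not deviate together across genes (correlations -0.0244, -0.0385 and 0.0815). With so few libraries per group this cannot exclude that samples were paired. Untreated and SP2509 libraries with the same replicate number also share a description number, but siPIR libraries do not share theirs in this way. The correlations with siPIR therefore compare libraries of different description numbers. The description number of siPIR replicate 1 occurs in no other library. Blocking by the description number instead gave 12016 calls for SP2509 and 13533 for siPIR, against 11316 and 14212 without a block. In siPIR cells the edgeR adjusted p of NRP2 was 0.0231 with upper-quartile scaling and 0.0403 without a count filter. Depth limits PLXNA2, NRP2 and NRP1, which had 127 counts or fewer in each untreated library.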

Other observations

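Semaphorins are cut by furin-like proprotein convertases and by metalloproteases, and 7 of 8 such protease genes were tested. With SP2509, ADAM17, the sheddase of tumour necrosis factor, rose by 1.18 on the log2 scale (SE 0.0969, edgeR adjusted p = 3.64e-07). ADAM10, a related sheddase, fell by 0.65 and the convertase gene PCSK7 by 0.44 (edgeR adjusted p = 1.88e-04 and 0.00431), and neither turned under the other scalings. FURIN, at 83.5 CPM in untreated and 91.5 in SP2509 cells, did not pass the test (edgeR adjusted p = 0.368). In siPIR cells ADAM10 and ADAM17 rose as fitted, by 2.20 and 2.08, and with the offset, by 0.40 and 0.36. FURIN was at -5.04 and, with the offset, at -1.51 (edgeR adjusted p = 5.34e-09), and PCSK7 at -1.29 and -1.60.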
